A study of Mus musculus with 2 samples.

Results

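The 10 genes described here belong to the regulatory circuit of oxidative metabolism and were followed through the nuclei of mouse tibialis anterior (TA) muscle. They are the coactivators *Ppargc1a* (PGC-1α), *Ppargc1b* (PGC-1β) and *Perm1*, the estrogen-related receptors (ERRs) *Esrra*, *Esrrb* and *Esrrg*, the peroxisome proliferator-activated receptors (PPARs) *Ppara*, *Ppard* and *Pparg*, and the retinoid X receptor *Rxra*. They were taken by gene symbol from the 32285 genes of the deposited matrices, and all 10 were found in both. Single-nucleus RNA sequencing captures nuclei in droplets and counts each RNA molecule once by its unique molecular identifier (UMI). The samples were 1 library labelled M-*Bcl6* WT and 1 labelled M-*Bcl6* KO, each of which pooled nuclei from both TA muscles of 2 male C57BL/6 mice aged 6 weeks. The KO mice were Myf6-Cre+ *Bcl6* fl/fl, with loxP sites around exons 7 to 9 of the transcriptional repressor *Bcl6*, and the controls were Myf6-Cre+ *Bcl6* wt/wt littermates, so that both groups carried Cre driven by the *Myf6* promoter, which is active in skeletal muscle. Nuclei were stained with 7-AAD, a DNA dye, and sorted by flow cytometry.

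PGC-1 coactivators do not bind DNA themselves. They dock on transcription factors, among them the ERRs and PPARs, and raise the transcription of genes for fatty acid oxidation, the citric acid cycle and the respiratory chain. PPARs bind DNA together with a retinoid X receptor and are activated by fatty acids, whereas ERRs have no known natural hormone. *Ppargc1a* is known in muscle for its induction by exercise and for its higher expression in oxidative than in glycolytic fibres. *Perm1* is a muscle target of PGC-1 and the ERRs that acts in the same circuit. Fibre types are named by their myosin heavy chain gene: *Myh4* marks the fast glycolytic type, *Myh1* an intermediate fast type, *Myh2* the fast oxidative type and *Myh7* the slow type.

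There was 1 library per genotype, so no difference between genotypes had a replicate check and no test was run. UMIs were summed over all nuclei of a class and given as CPM, the UMIs of a gene per 1000000 UMIs of those nuclei. Levels carry exact Poisson 95% intervals, shares exact Clopper-Pearson 95% intervals and log2 ratios exact 95% intervals conditional on the summed UMIs. All of these cover counting error only. A gene was called higher or lower when its CPM differed at least 2-fold, that is by at least 1 on the log2 scale, and smaller differences are given as log2 ratios. CPM does not correct for gene length, so levels are compared between classes for 1 gene and never between genes.

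The library labelled WT held 3798 barcodes with 11974138 UMIs and the library labelled KO 4096 barcodes with 12026013 UMIs, with medians of 2595 and 2494 UMIs per barcode. After filtering, 3674 and 3944 nuclei were kept, and 6 barcode sequences occurred in both libraries. Myonuclei, the nuclei of the muscle fibres, numbered 2407 (65.5%) and 3085 (78.2%), with 8832129 and 9625965 UMIs. Their 10 marker genes, among which *Ttn* was the most abundant, summed to 97622 CPM in the library labelled WT and 113605 CPM in that labelled KO. Each myonucleus was assigned to the gene with most UMIs among *Myh4*, *Myh1*, *Myh2* and *Myh7*, without a minimum number of UMIs. No main *Myh* gene was assigned where the highest count was tied or no such UMI was found. This gave 701 and 612 *Myh4*-main, 1155 and 1175 *Myh1*-main, 236 and 482 *Myh2*-main and 2 and 19 *Myh7*-main myonuclei in the libraries labelled WT and KO, and 313 and 797 myonuclei had no main *Myh* gene. The libraries therefore differed in these shares before any gene was compared: the share of *Myh2*-main myonuclei among kept nuclei was 6.42% and 12.2%, and that of myonuclei with no main *Myh* gene was 8.52% and 20.2%. Median depth was 3127 and 2708 UMIs in all myonuclei and 2452 and 2236 UMIs in those with no main *Myh* gene. The part of depth in these shares was not tested.

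The targeted gene was not lower in the library labelled KO. *Bcl6* (ENSMUSG00000022508, chr16:23965052-23988852, minus strand, GRCm38) was at 167 CPM (159 to 176) in myonuclei with the WT label, on 1475 UMIs, and at 502 CPM (488 to 516) in those with the KO label, on 4832 UMIs, a log2 ratio of 1.59 (1.50 to 1.67). By fibre type it was 171 and 842 CPM in *Myh4*-main, 156 and 430 CPM in *Myh1*-main and 238 and 354 CPM in *Myh2*-main myonuclei. Counts per gene carry no record of the exon a molecule was read from, so they do not check the deletion. Every direction below is therefore given for the library labelled KO over the library labelled WT.

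Of the 10 genes, 7 were higher in *Myh2*-main than in *Myh4*-main myonuclei by at least 2-fold in both libraries: *Ppargc1a*, *Ppargc1b*, *Perm1*, *Esrra*, *Esrrb*, *Esrrg* and *Ppara*. None was lower by that measure. The comparison needed at least 50 UMIs in these fibre types of each library, which 9 of the 10 genes had, *Pparg* being the exception, so the count was 7 of 9. Of all 5735 genes tested, 380 (6.63%) were higher in *Myh2*-main myonuclei in both libraries and 238 (4.15%) were lower. The median log2 ratio of the 9 genes was 2.36 in the library labelled WT and 2.36 in that labelled KO, beside 0.01 and -0.05 over all genes tested. The fibre types were read from the same nuclei as the 10 genes, but the *Myh* genes that defined them are not among the 10, and the 10 genes were left out of the clustering that separated myonuclei from other nuclei.

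**Figure D1:**
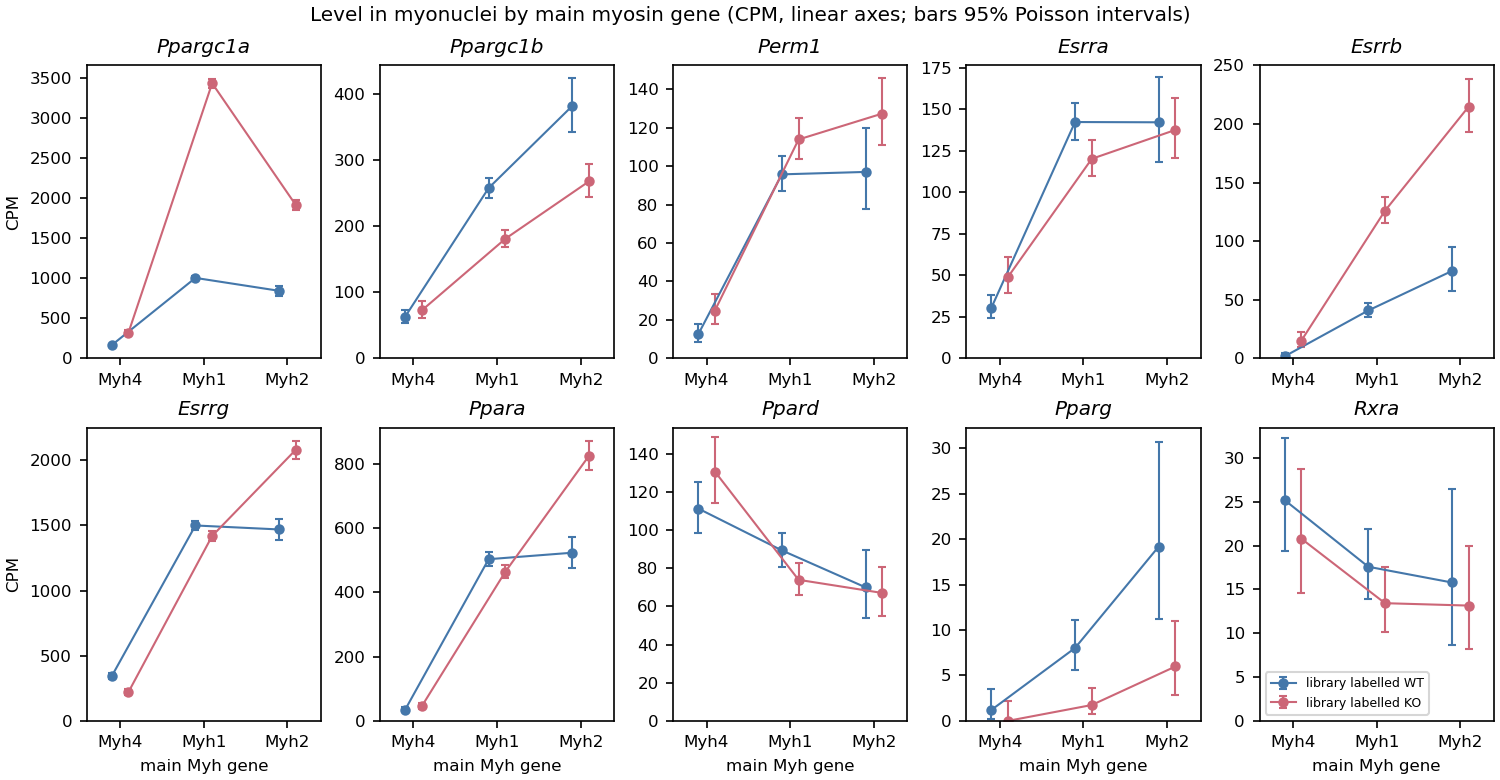
Level of each of the 10 genes (CPM, linear axes that differ between panels) in *Myh4*-main, *Myh1*-main and *Myh2*-main myonuclei of the libraries labelled WT and KO, with exact Poisson 95% intervals as bars. *Ppargc1a* in the library labelled KO goes from 321 CPM in *Myh4*-main to 3438 CPM in *Myh1*-main myonuclei, whereas *Ppard* goes from 131 CPM in *Myh4*-main to 67.0 CPM in *Myh2*-main myonuclei of that library, short of 2-fold.

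*Ppargc1a* (ENSMUSG00000029167, chr5:51454250-51567726, minus strand) had its highest level in *Myh1*-main myonuclei. In the library labelled WT it was 164 CPM (149 to 181) in *Myh4*-main, 1004 CPM (975 to 1034) in *Myh1*-main and 843 CPM (784 to 906) in *Myh2*-main myonuclei. The library labelled KO had 321 CPM (295 to 349), 3438 CPM (3381 to 3495) and 1915 CPM (1849 to 1982) in the same order. The order *Myh1*, *Myh2*, *Myh4* in CPM thus held in both libraries with intervals that did not overlap. These intervals leave out the spread between nuclei. The share of nuclei with a *Ppargc1a* UMI, thinned to equal depth, did not separate *Myh1*-main from *Myh2*-main myonuclei. It was 48.6% (45.6 to 51.5) and 42.5% (36.1 to 49.1) in the library labelled WT. In that labelled KO it was 57.4% (54.5 to 60.2) and 60.7% (56.2 to 65.1). *Myh4*-main myonuclei had lower shares, 12.1% and 13.6%. The log2 ratio of *Myh2*-main over *Myh4*-main myonuclei was 2.36 and 2.58, the latter 3.82 where the main *Myh* gene needed at least 3 *Myh* UMIs and 60% of them. Myonuclei with no main *Myh* gene lay between the *Myh2*-main and *Myh4*-main types at 312 and 1571 CPM. In the 19 *Myh7*-main myonuclei of the library labelled KO the level was 252 CPM (147 to 404) on 17 UMIs, a log2 ratio of -2.93 to *Myh2*-main myonuclei of that library (-3.71 to -2.24).

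*Ppargc1b* (ENSMUSG00000033871), which encodes PGC-1β, was ordered differently, with its highest level in *Myh2*-main myonuclei. It went from 62.4 CPM in *Myh4*-main to 257 CPM in *Myh1*-main and 381 CPM in *Myh2*-main myonuclei of the library labelled WT. The corresponding levels in the library labelled KO were 72.2, 181 and 267 CPM. The log2 ratio of *Myh2*-main over *Myh1*-main myonuclei was 0.57 in each library (0.39 to 0.74 in both), whereas that of *Ppargc1a* was -0.25 and -0.84. *Perm1* (ENSMUSG00000078486, chr4:156215868-156221307, plus strand) was at 12.4 CPM in *Myh4*-main, 95.8 CPM in *Myh1*-main and 97.1 CPM in *Myh2*-main myonuclei of the library labelled WT, and at 24.8, 114 and 127 CPM in that labelled KO. Its *Myh1*-main and *Myh2*-main levels could not be separated at this depth, with log2 ratios of 0.02 (-0.33 to 0.36) and 0.16 (-0.08 to 0.40).

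Among the ERRs, *Esrrb* (ENSMUSG00000021255, chr12:86361117-86521628, plus strand) had the steepest contrast between fibre types in the library labelled WT. There it had 4 UMIs in *Myh4*-main myonuclei, or 1.60 CPM, against 40.8 CPM in *Myh1*-main and 74.5 CPM in *Myh2*-main myonuclei. The library labelled KO had 15.0, 126 and 215 CPM. The log2 ratio of *Myh2*-main over *Myh4*-main was 5.54 (4.12 to 7.46) and 3.84 (3.26 to 4.47), and 7.23 and 4.98 with that stricter *Myh* call. *Esrrg* (ENSMUSG00000026610, chr1:187608791-188214885, plus strand) was at 343, 1500 and 1469 CPM in *Myh4*-main, *Myh1*-main and *Myh2*-main myonuclei of the library labelled WT, the latter pair within counting error of each other. In the library labelled KO its levels were 221, 1419 and 2082 CPM, and the log2 ratio of *Myh2*-main over *Myh1*-main was 0.55 (0.49 to 0.61). The 19 *Myh7*-main myonuclei of that library had 2654 CPM on 179 UMIs, its highest level in any fibre type there. *Esrra* (ENSMUSG00000024955, chr19:6910977-6921813, minus strand), the ERR that PGC-1α itself is known to induce, was at 30.4, 142 and 142 CPM in the library labelled WT and 49.1, 120 and 138 CPM in that labelled KO.

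The 3 PPARs differed in pattern. *Ppara* (ENSMUSG00000022383, chr15:85734983-85802819, plus strand), the fatty acid sensor best known from liver and heart, was at 33.6, 503 and 524 CPM in *Myh4*-main, *Myh1*-main and *Myh2*-main myonuclei of the library labelled WT. In the library labelled KO it was at 45.1, 465 and 826 CPM, so that the log2 ratio of *Myh2*-main over *Myh4*-main was 3.96 (3.62 to 4.31) and 4.20 (3.87 to 4.54), the latter 4.95 with the stricter *Myh* call. *Ppard* (ENSMUSG00000002250, chr17:28232700-28301474, plus strand), the broadly expressed member of the family, ran the other way. Its levels were 111, 89.3 and 70.0 CPM in the library labelled WT and 131, 73.9 and 67.0 CPM in that labelled KO, with log2 ratios of *Myh2*-main over *Myh4*-main of -0.67 (-1.09 to -0.27) and -0.96 (-1.30 to -0.63), short of 2-fold. *Rxra* (ENSMUSG00000015846, chr2:27676440-27762957, plus strand), the DNA-binding partner of the PPARs, was low, at 25.2, 17.6 and 15.8 CPM and at 20.8, 13.4 and 13.2 CPM, and the intervals of its log2 ratios of *Myh2*-main over *Myh4*-main, -0.67 and -0.66, reached past 0. With each nucleus thinned to 1000 UMIs, *Ppard* and *Rxra* passed 2-fold in the library labelled WT, at -1.14 and -1.42. *Pparg* (ENSMUSG00000000440, chr6:115360951-115490399, plus strand), the regulator of fat cell formation, had only 57 and 19 UMIs in all myonuclei, of which 17 and 10 lay in *Myh2*-main nuclei and 3 and 0 in *Myh4*-main nuclei. The 17 and 3 UMIs gave a log2 ratio of 4.00 (2.21 to 6.41) in the library labelled WT, and the 10 and 0 UMIs in that labelled KO gave an interval with a lower limit of 1.21.

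**Figure D2:**
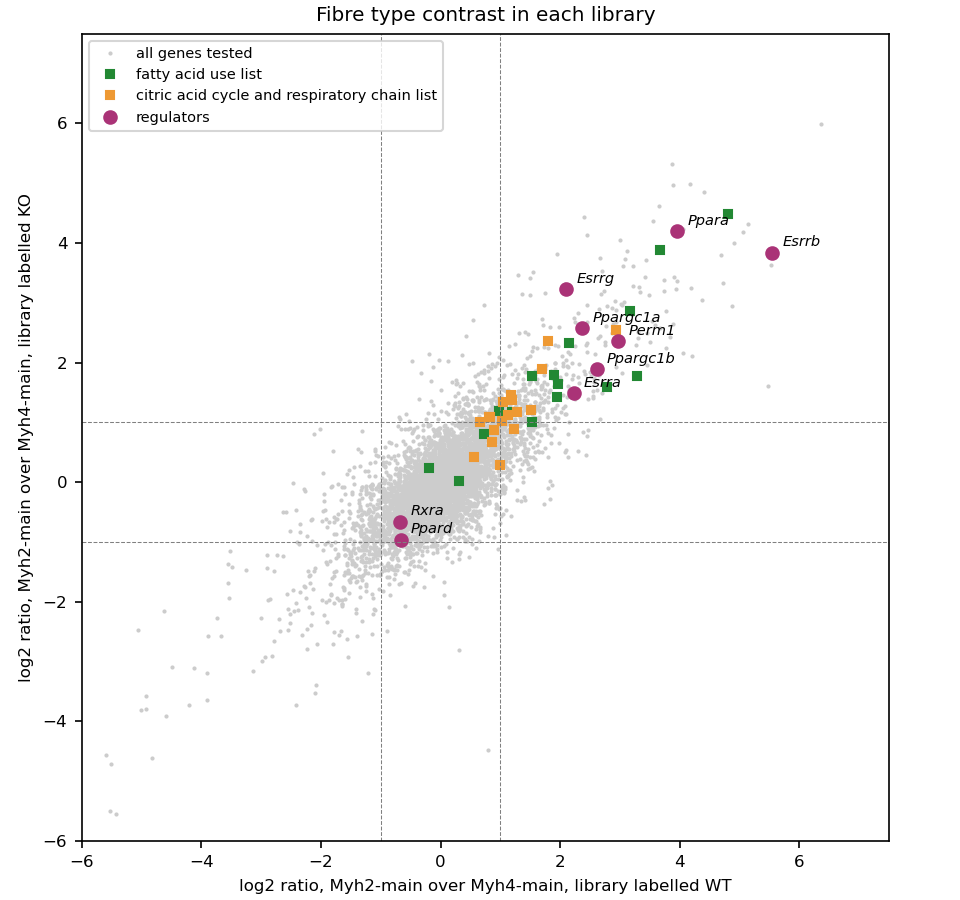
Log2 ratio of *Myh2*-main over *Myh4*-main myonuclei in the library labelled WT (x axis) and in that labelled KO (y axis) for all genes with enough UMIs (grey), the lists of fatty acid use (green) and of the citric acid cycle and respiratory chain (orange) and the 9 tested genes of the circuit (named). Dashed lines mark 2-fold, and genes with 0 UMIs in 1 fibre type are not drawn. The 7 genes named above lie beyond 2-fold in the upper right corner, and *Ppard* and *Rxra* lie below 0 on both axes.

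The sequence upstream of the start site was read for 9 of the 10 genes, which had 16 start sites in the RefSeq promoter table (GRCm38.p6). The sequences of 3 are shown because their genes were among the 7 that were higher in *Myh2*-main myonuclei and because a different motif is marked in each. Each is the 250 bases before an annotated start, 5′ to 3′ on the strand of the gene, with the motif in capitals. For *Ppargc1a* (chr5:51567726-51567975, minus strand) the capitals mark 6 matches to the E-box CANNTG, the site bound by myogenic factors. For *Perm1* (chr4:156215677-156215926, plus strand) they mark the nuclear receptor core AGGTCA, here on the reverse strand as TGACCT, 202 bases before the start. For *Esrrg* (chr1:187608756-187609005, plus strand) they mark a MEF2 site, 22 bases before that RefSeq start. The sequences of *Perm1* and *Esrrg* also hold E-boxes, at 128 and 19 bases and at 53 bases before the start, which are not in capitals. By the GENCODE M21 positions given above, *Esrrg* begins at 187608791 and *Perm1* at 156215868, inside these windows. By that annotation the MEF2 site and the E-box of *Esrrg* lie within the gene. The same holds for the E-box 19 bases before the RefSeq start of *Perm1*.
Ppargc1a: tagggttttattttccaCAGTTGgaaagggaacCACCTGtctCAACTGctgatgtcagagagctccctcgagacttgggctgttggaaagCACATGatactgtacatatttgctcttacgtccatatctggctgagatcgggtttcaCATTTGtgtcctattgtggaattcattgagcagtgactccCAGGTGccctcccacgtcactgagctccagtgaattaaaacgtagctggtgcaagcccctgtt
Perm1: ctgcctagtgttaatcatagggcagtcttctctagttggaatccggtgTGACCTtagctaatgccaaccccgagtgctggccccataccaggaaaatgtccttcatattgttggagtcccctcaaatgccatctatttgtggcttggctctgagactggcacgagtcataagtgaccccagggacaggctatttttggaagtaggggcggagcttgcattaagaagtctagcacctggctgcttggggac
Esrrg: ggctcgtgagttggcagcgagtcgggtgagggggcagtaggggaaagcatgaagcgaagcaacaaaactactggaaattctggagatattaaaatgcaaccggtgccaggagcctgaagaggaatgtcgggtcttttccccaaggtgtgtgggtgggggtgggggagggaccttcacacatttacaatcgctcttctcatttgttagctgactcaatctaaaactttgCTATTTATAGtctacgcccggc

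Both strands were searched. AGGTCA occurred upstream of 3 of the 9 genes (*Perm1*, *Pparg* and *Rxra*), in 4 of their 16 sequences, and in 14.0% of all 32851 upstream sequences of this length. The longer ERR element TCAAGGTCA, which contains AGGTCA, was found upstream of none of the 9 and in 0.387% of all, and the cyclic AMP response element TGACGTCA upstream of none and in 1.55%. CANNTG occurred upstream of all 9, in 12 of the 16 sequences, and in 66.2% of all. The MEF2 site occurred upstream of *Esrrg* alone, in 1 of the 16, and in 0.508% of all. These are matches of letters in a window of 250 bases before a RefSeq start and say nothing of binding.

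Genes downstream of the circuit were read from lists of 20, 20 and 6 genes, next to 8 biogenesis factors and 19 partner receptors and regulators of PGC-1 activity. Their counts were read beside the 6.63% of all genes tested that were higher in *Myh2*-main myonuclei in both libraries and the 4.15% that were lower. Of the PPAR target genes of fatty acid use, 12 of 16 tested were higher in *Myh2*-main than in *Myh4*-main myonuclei in both libraries and none was lower, with medians of 1.92 and 1.61. *Lpl*, the lipase that frees fatty acids from lipoproteins, had log2 ratios of 4.81 and 4.49, and *Plin5*, a lipid droplet protein, 3.29 and 1.78. Of the ERR and PGC-1 target genes of the citric acid cycle and respiratory chain, 10 of 18 were higher and none lower, with medians of 1.08 and 1.11. *Mb*, myoglobin, had 2.93 and 2.54, whereas *Cs*, citrate synthase, had 1.23 and 0.89. Of the other PGC-1 targets 4 of 5 were higher, among them *Vegfa*, the angiogenic growth factor, with 1.68 and 1.61. In the other lists, none of 5 biogenesis factors and 1 of 16 partners and regulators was higher (*Nr1d1*, 1.10 and 1.15), and *Prkab2*, an AMP-activated kinase subunit, was lower by 1.93 and 2.01.

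Between the libraries, 2 of the 9 genes that reached 200 UMIs in myonuclei were higher by at least 2-fold in the library labelled KO, *Ppargc1a* and *Esrrb*, and none was lower. Of all 6976 genes tested, 3.1% were higher and 2.71% were lower by at least 2-fold. The median log2 ratio of the 9 genes was 0.12, with 6 above 0 and 3 below, beside -0.15 over all genes tested, of which 66.5% were below 0. TMM scaling moved the median of all genes to -0.03 and median-of-ratios scaling moved it to -0.02.

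*Ppargc1a* was at 675 CPM (658 to 693) in the library labelled WT, from 5964 UMIs, and at 2176 CPM (2147 to 2206) in that labelled KO, from 20948 UMIs. This is 3.22-fold more, a log2 ratio of 1.69 (1.65 to 1.73). It was higher in the *Myh1*-main and *Myh2*-main types and in myonuclei with no main *Myh* gene, with log2 ratios of 1.78 (1.73 to 1.82), 1.18 (1.07 to 1.30) and 2.33 (2.16 to 2.51) in that order, and its ratio of 0.97 (0.78 to 1.16) in *Myh4*-main myonuclei was short of 2-fold. *Esrrb* was at 29.8 CPM (26.3 to 33.6) on 263 UMIs and at 101 CPM (94.4 to 107) on 969 UMIs, a log2 ratio of 1.76 (1.56 to 1.96). It was higher by 3.23 (1.70 to 5.21) in *Myh4*-main on 4 and 26 UMIs, 1.63 (1.38 to 1.88) in *Myh1*-main, 1.53 (1.15 to 1.93) in *Myh2*-main and 1.82 (0.75 to 3.09) in myonuclei with no main *Myh* gene. In the 2 and 19 *Myh7*-main myonuclei *Esrrb* had 2 and 15 UMIs, a log2 ratio of -1.49 (-3.59 to 1.68), and *Ppargc1a* had 0 and 17 UMIs.

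The other genes tested differed by less than 2-fold over all myonuclei. *Ppargc1b*, at 200 and 154 CPM, had a log2 ratio of -0.38 (-0.48 to -0.28), opposite in sign to that of *Ppargc1a*. It was -0.51 in both *Myh1*-main and *Myh2*-main and 0.21 (-0.14 to 0.56) in *Myh4*-main myonuclei. *Perm1*, at 65.0 and 85.3 CPM, had 0.39 (0.24 to 0.55). *Ppara*, at 331 and 387 CPM, had 0.22 (0.15 to 0.29), and *Esrrg*, at 1053 and 1148 CPM, had 0.12 (0.08 to 0.16). In cluster 3, a myonuclear cluster of 467 and 440 nuclei in which *Myh4* was the most abundant *Myh* gene, *Esrrg* was lower in the library labelled KO, at 161 and 40.5 CPM on 278 and 52 UMIs, a log2 ratio of -1.99 (-2.45 to -1.56). The intervals of *Ppard* at 98.3 and 101 CPM, *Esrra* at 103 and 96.4 CPM and *Rxra* at 20.4 and 16.4 CPM all included 0, and the sign of *Esrra* turned from -0.09 to 0.02 with TMM scaling. *Pparg*, below the minimum of 200 UMIs, was at 6.45 and 1.97 CPM in myonuclei, a log2 ratio of -1.71 (-2.54 to -0.94). Its UMIs were fewer in *Myh1*-main myonuclei of the library labelled KO (36 and 7) as in *Myh2*-main myonuclei (17 and 10).

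**Figure D3:**
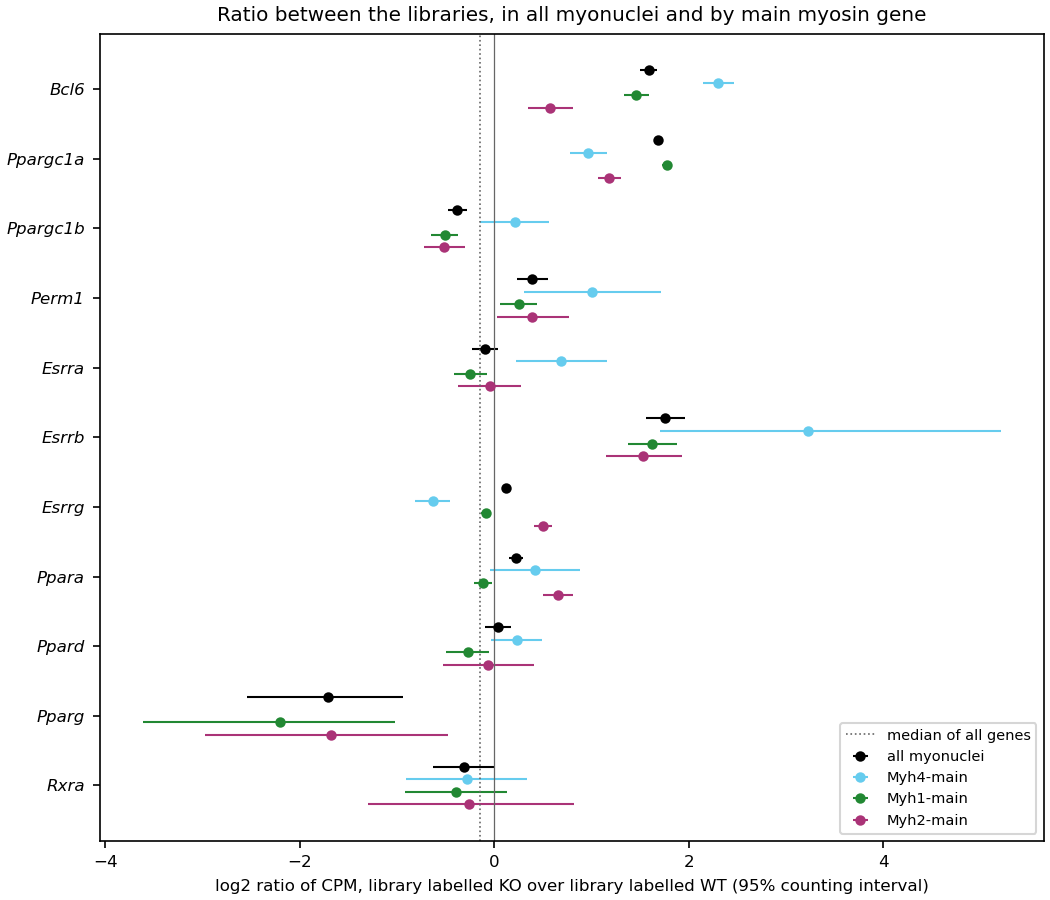
Log2 ratio of the library labelled KO over that labelled WT for *Bcl6* and each gene of the circuit in all myonuclei and in *Myh4*-main, *Myh1*-main and *Myh2*-main myonuclei, with exact 95% intervals for counting error as bars. The dotted line is the median of all genes tested (-0.15). *Ppargc1a* (1.69) and *Esrrb* (1.76) lie beyond 1 in all myonuclei and *Ppargc1b* lies below 0 at -0.38.

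The *Ppargc1a* UMIs were concentrated in a minority of nuclei. At least 10 UMIs of *Ppargc1a* were found in 150 of 2407 myonuclei (6.23%) of the library labelled WT, which held 42.0% of its UMIs. In the library labelled KO there were 575 of 3085 such myonuclei (18.6%), and they held 82.2% of its UMIs. The highest count in 1 nucleus was 67 and 180. The share of myonuclei with any *Ppargc1a* UMI was 56.1% and 57.5% at the libraries' own depths, and after thinning each nucleus to 1000 UMIs it was 33.1% (31.2 to 35.1) and 42.9% (41.1 to 44.7). Endothelial-like nuclei are given for comparison, as a class in which the gene was low (28.0 and 33.1 CPM). The share there was 1.31% and 2.63% after thinning and 2.23% and 6.87% before. Median depths were 1391 and 1754 UMIs in these nuclei against 3127 and 2708 UMIs in myonuclei. *Esrrg*, with 11.8% and 11.0% of myonuclei at 10 UMIs or more, showed no such rise in that share. Its share of myonuclei with any UMI was 65.7% and 57.7%, and after thinning 49.1% (47.0 to 51.1) and 43.9% (42.2 to 45.7). *Esrrb* reached 10 UMIs in 0.0648% of myonuclei of the library labelled KO and in none of that labelled WT.

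**Figure D4:**
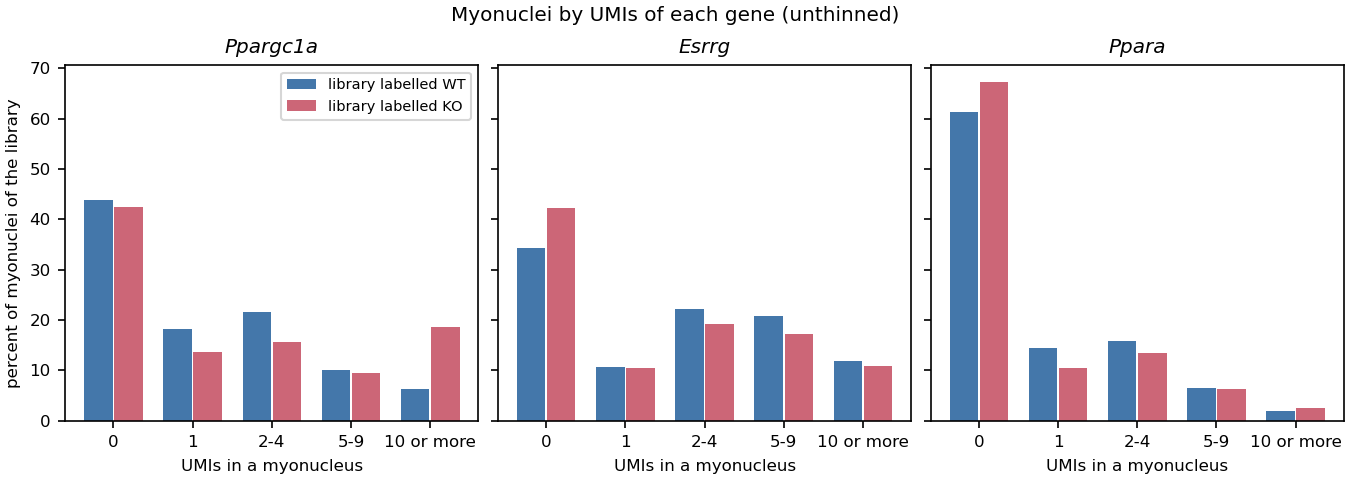
Share of myonuclei (percent) by their number of *Ppargc1a*, *Esrrg* and *Ppara* UMIs, not thinned, in the libraries labelled WT (2407 nuclei) and KO (3085 nuclei). For *Ppargc1a*, the share with at least 10 UMIs is 6.23% and 18.6%.

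*Myh1*-main myonuclei fell mainly into 3 clusters, numbered 0, 1 and 5, which held 621, 343 and 140 of them in the library labelled WT and 460, 434 and 199 in that labelled KO. The clusters were built without the 10 genes and without genes that differed 2-fold between the libraries. In cluster 0, *Ppargc1a* was at 1322 CPM in the library labelled WT and 6521 CPM in that labelled KO, and in cluster 5 at 826 and 3852 CPM. Cluster 1 went the other way, at 544 CPM (503 to 587) and 348 CPM (318 to 379). The level in 2 of the 3 clusters of a single fibre type was thus more than 4-fold higher in the library labelled KO, with log2 ratios of 2.30 and 2.22, and had a log2 ratio of -0.65 in the remaining cluster. *Ppara* was highest in cluster 0 of both libraries, at 742 and 987 CPM, against 196 and 95.4 CPM in cluster 1. *Esrrb* was higher in the library labelled KO in all 3 clusters, with log2 ratios of 2.01 (1.71 to 2.31) in cluster 0, 1.05 (0.54 to 1.57) in cluster 1 and 4.41 (2.48 to 7.49) in cluster 5, the last on 2 and 54 UMIs.

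Within *Myh1*-main myonuclei thinned to 1000 UMIs, nuclei with and without a *Ppargc1a* UMI were set side by side. In the library labelled KO, the 669 nuclei with one had 729 CPM of *Ppara* and the 497 nuclei without had 155 CPM, a log2 ratio of 2.24 (1.89 to 2.60). In that labelled WT, 556 and 589 such nuclei had 592 and 421 CPM, a log2 ratio of 0.49 (0.25 to 0.73). *Perm1* was at 148 and 70.4 CPM in nuclei with and without a *Ppargc1a* UMI of the library labelled KO, and at 110 and 66.2 CPM in that labelled WT. *Esrrg* was at 1646 and 996 CPM in the former and 1518 and 1467 CPM in the latter. *Ppargc1b* (178 and 193 CPM) and *Esrra* (117 and 159 CPM) had log2 ratios in the library labelled KO whose intervals included 0. *Bcl6* itself was at 330 CPM in nuclei with and 541 CPM in nuclei without a *Ppargc1a* UMI of that library, a log2 ratio of -0.71 (-0.98 to -0.45), and at 165 and 178 CPM in those of the library labelled WT, -0.11 (-0.53 to 0.31). By cluster 0, 1 and 5 of *Myh1*-main myonuclei of the library labelled KO *Bcl6* was at 266, 598 and 409 CPM, where *Ppargc1a* was at 6521, 348 and 3852 CPM, and the split by *Ppargc1a* UMI was not repeated within clusters. *Myh2*-main myonuclei of the same library had 1232 and 337 CPM of *Ppara* and 336 and 503 CPM of *Bcl6*. Nuclei of 1 library share their preparation and were not used as replicates, and a nucleus without a UMI at this depth may still hold the RNA.

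The lists of downstream genes were read beside the 3.1% of all genes that were at least 2-fold higher, the 2.71% that were lower and the 66.5% that were below 0. Of 19 PPAR target genes of fatty acid use tested, 1 was higher, *Angptl4*, an inhibitor of lipoprotein lipase, at 7.93 and 20.2 CPM with a log2 ratio of 1.35 (0.95 to 1.76). The only lower one was *Plin2*, a lipid droplet protein, at 30.1 and 13.6 CPM with -1.15 (-1.46 to -0.84), which did not reach 2-fold with each nucleus thinned to 1000 UMIs (-0.89). The median was -0.27, with 15 of 19 below 0, beside -0.15 over all genes tested. *Lpl* was at 251 and 144 CPM with -0.80 (-0.90 to -0.70), short of 2-fold, and *Plin5* had 0.11 (-0.16 to 0.39). Of 20 ERR and PGC-1 target genes of the citric acid cycle and respiratory chain none passed 2-fold in either direction, and their median was -0.02. *Cox5b*, a subunit of cytochrome oxidase, had 0.90 (0.54 to 1.26) and *Atp5b*, a subunit of ATP synthase, 0.26 (0.14 to 0.38), whereas *Cs* had -0.40 (-0.50 to -0.30) and *Mb* -0.34 (-0.49 to -0.20).

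None of the 5 other PGC-1 targets tested passed 2-fold, with a median of 0.25. *Ldhb*, a lactate dehydrogenase subunit, had 0.43 (0.16 to 0.69) and *Vegfa* 0.37 (0.33 to 0.41), while the kynurenine aminotransferases *Kyat3* and *Kyat1* had -0.67 (-0.95 to -0.38) and -0.44 (-0.70 to -0.18). None of 17 partners and regulators did either, with a median of -0.12. *Flcn* had 0.50 (0.37 to 0.62) and the corepressor *Nrip1* 0.26 (0.17 to 0.35), while *Prkab2* had -0.70 (-0.85 to -0.54). All 8 biogenesis factors were tested and none passed 2-fold, with a median of -0.16. The mitochondrial transcription factors *Tfam* (0.29, -0.11 to 0.69), *Tfb2m* (0.05, -0.18 to 0.29) and *Tfb1m* (-0.36, -0.74 to 0.01) and the mitochondrial RNA polymerase *Polrmt* (-0.38, -0.79 to 0.02) had intervals that included 0.

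Outside the muscle fibre the 10 genes did not keep to 1 class. Non-muscle classes were named by their markers and called fibro-adipogenic progenitor (FAP)-like (483 and 332 nuclei), endothelial-like (224 and 131), muscle stem cell (MuSC)-like (186 and 127), pericyte or smooth muscle-like (158 and 117), macrophage-like (100 and 56) and tenocyte-like (60 and 56). RNA from myonuclei was present in each: the summed level of the myonuclear markers ranged from 2.38% of that in myonuclei, in FAP-like nuclei, to 12.0%, in MuSC-like nuclei, both in the library labelled WT. In MuSC-like nuclei of that library *Dmd*, the dystrophin gene, made up 7529 of the 11732 CPM of these markers, and in pericyte or smooth muscle-like nuclei 2537 of 4297 CPM. *Ttn*, *Neb* and *Trdn* alone, a choice made after these values were seen, summed to 3.52% and 2.55% of their myonuclear level in MuSC-like nuclei, where the 10 markers gave 12.0% and 9.42%. Both percentages of a gene's level in myonuclei are set beside its values as estimates of carried-over myonuclear RNA, the 10 markers giving the higher one in all but tenocyte-like nuclei of the library labelled WT.

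In both libraries *Pparg* was higher in 3 of these 6 classes than in myonuclei or the other 3. It was at 771 CPM in endothelial-like nuclei of the library labelled WT and 625 CPM in that labelled KO, 119-fold and 317-fold its level in myonuclei. Macrophage-like nuclei followed with 301 and 171 CPM, and pericyte or smooth muscle-like nuclei with 169 and 80.4 CPM. On 1 to 7 UMIs or none, it was at 1.83 and 9.80 CPM in FAP-like, 3.66 and 0 CPM in MuSC-like and 5.96 and 13.2 CPM in tenocyte-like nuclei, where myonuclei had 6.45 and 1.97 CPM. In the library labelled KO alone, FAP-like and tenocyte-like nuclei were thus also higher than myonuclei. Their log2 ratios were 2.31 (0.82 to 3.62) on 7 UMIs and 2.75 (-0.40 to 4.80) on 2 UMIs. After thinning to 1000 UMIs, 38.6% (30.8 to 46.8) and 42.1% (32.9 to 51.7) of endothelial-like nuclei had a *Pparg* UMI, against 0.336% and 0.232% of myonuclei and 0 of 121 and 0 of 87 MuSC-like nuclei, which allows shares with a UMI at that depth of up to 2.48% and 3.45% (3 counts of the total), with Clopper-Pearson upper limits of 3.0% and 4.15%. The unthinned shares were 49.1% and 50.4% in endothelial-like nuclei, 1.29% and 0.519% in myonuclei and 0.538% and 0% in MuSC-like nuclei. Of 6 fat cell markers 3 and 2 were detected in myonuclei, summing to 1.81 and 1.45 CPM and led by *Acvr1c* at 1.13 and 1.35 CPM, while the defining markers *Adipoq*, *Cidec* and *Lep* were at 0 in both libraries. The 8 endothelial markers, all detected and led by *Tek*, summed there to 17.7 and 16.9 CPM. The part of either cell type in the few *Pparg* UMIs of myonuclei was not tested.

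*Ppargc1b*, the coactivator that tracked *Myh2* in the fibres, was also present at 161 CPM (122 to 207) and 203 CPM (154 to 262) in pericyte or smooth muscle-like nuclei, where the 10 markers gave a carry-over of 8.82 and 8.42 CPM and *Ttn*, *Neb* and *Trdn* one of 4.51 and 5.57 CPM. In macrophage-like nuclei it was at 83.5 and 135 CPM against 5.45 and 5.39 CPM by the 10 markers. With nuclei under 1% of myonuclear marker UMIs alone, the pericyte or smooth muscle-like values were 166 and 203 CPM. *Ppard* was found in every class, from 29.8 CPM in tenocyte-like nuclei of the library labelled WT to 125 CPM in MuSC-like nuclei of that labelled KO, with myonuclei at 98.3 and 101 CPM. *Esrra* was at 83.5 and 72.1 CPM in macrophage-like and 68.0 and 52.5 CPM in pericyte or smooth muscle-like nuclei.

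*Esrrg* stood out in MuSC-like nuclei, at 322 CPM (0.305 of the myonuclear level) in the library labelled WT and 468 CPM (0.408 of it) in that labelled KO, where the carry-over was 127 and 108 CPM by the 10 markers and 37.0 and 29.3 CPM by *Ttn*, *Neb* and *Trdn*. With MuSC-like nuclei under 1% of myonuclear marker UMIs alone it was 291 and 616 CPM. *Ppargc1a*, the gene that differed most in number of UMIs between the libraries, was low in all 6 classes. It was at 36.6 CPM (17.5 to 67.2) and 62.4 CPM (32.2 to 109) in MuSC-like nuclei, where *Ttn*, *Neb* and *Trdn* gave a carry-over of 23.7 and 55.5 CPM, within these intervals, and the 10 markers one of 81.2 and 205 CPM. In tenocyte-like nuclei of the library labelled WT it was at 113 CPM against a carry-over of 56.4 and 58.5 CPM, and in those of the library labelled KO at 139 CPM (86.1 to 213) against 184 and 176 CPM. It was at 118 CPM in FAP-like nuclei of the library labelled KO, a value that dropped to 35.6 CPM in nuclei under 1% of myonuclear marker UMIs. *Esrrb* had no more than 3 UMIs in any of the 6 classes of either library, and *Perm1* no more than 6.

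**Figure D5:**
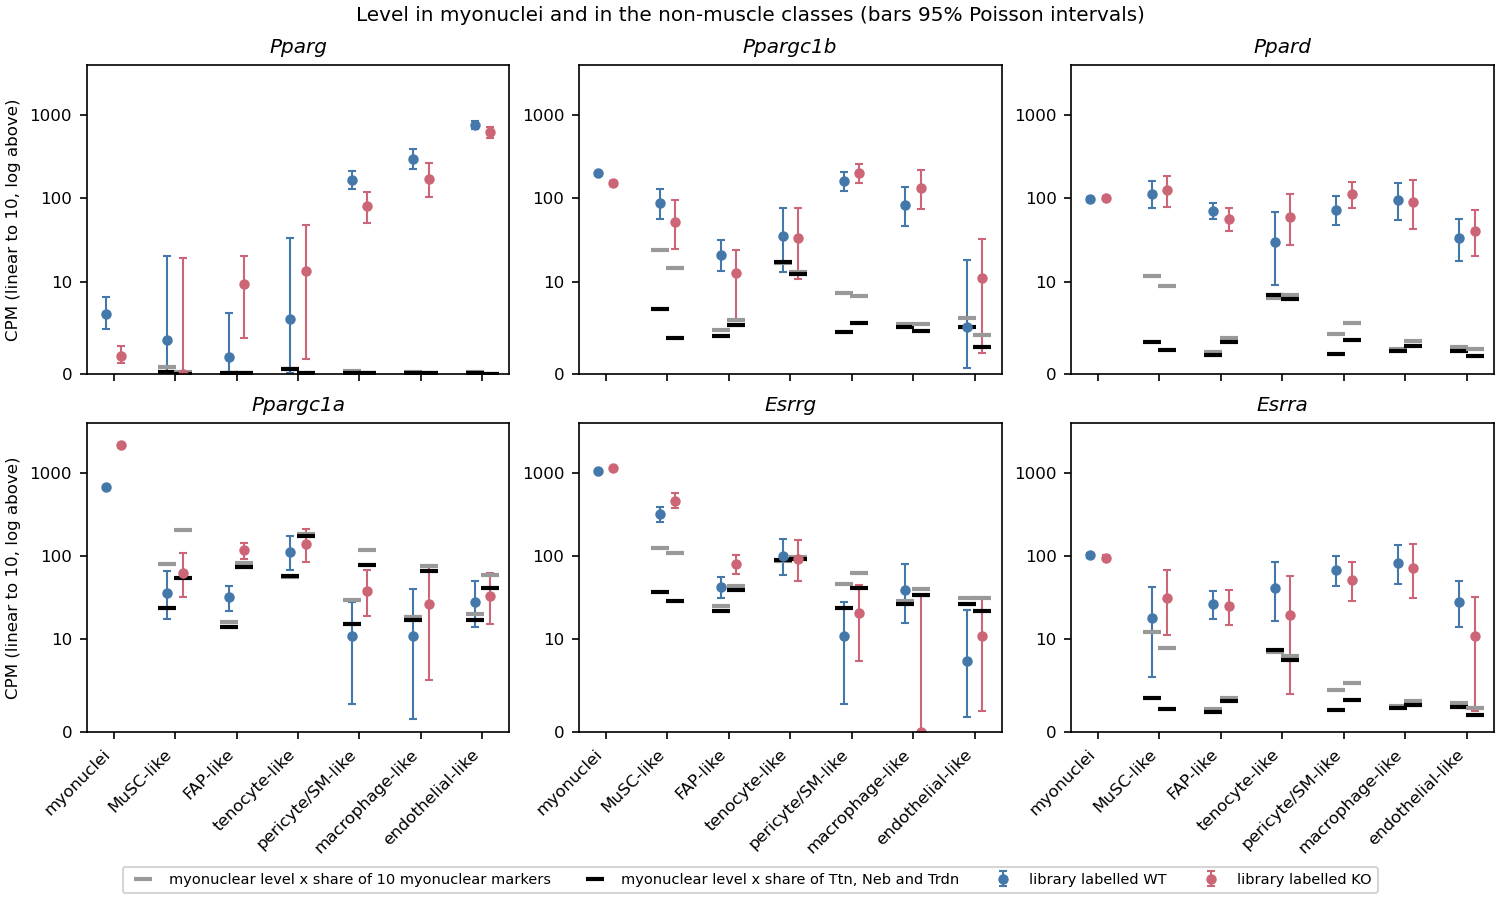
Level of *Pparg*, *Ppargc1b*, *Ppard*, *Ppargc1a*, *Esrrg* and *Esrra* (CPM, linear up to 10 CPM and log above) in myonuclei and in 6 non-muscle classes of the libraries labelled WT and KO, with exact Poisson 95% intervals as bars. Dashes give the carry-over of myonuclear RNA estimated from the 10 markers (grey) and from *Ttn*, *Neb* and *Trdn* (black), both of which *Pparg* exceeds in endothelial-like nuclei (771 and 625 CPM), while *Ppargc1a* in MuSC-like nuclei (36.6 and 62.4 CPM) lies between them.

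Profiles were compared over 20 points, each a fibre type or class of at least 50 nuclei in 1 library, as the Pearson r of log2(CPM + 10). The points share 2 libraries and the contrast between muscle and other nuclei, so r is a description. *Ppargc1a* was most like *Perm1* (0.93) and *Ppara* (0.92) among the 10 genes, and *Esrra* was most like *Ppargc1b* (0.84), while *Pparg* was opposed to *Esrrg* (-0.75). Over 5724 genes, the profile most like *Ppargc1a* was that of *Dusp18* (0.98), a phosphatase, followed by *Mfsd4b1*, *Cdhr3*, *Ankrd2*, a stretch-responsive ankyrin repeat protein, and *Akap1*, a mitochondrial anchor of protein kinase A (each 0.96). *Ppara* was followed by *1700113H08Rik* (0.97), *Akap1* (0.96), *Atp1b1*, *Stab2* and *Nipsnap2* (each 0.95). *Perm1* was most like *Pank1* (0.97), *4831440D22Rik* (0.97), *Atp1b1*, *Ankrd2* and *Actn2* (each 0.96), and *Esrrb* most like *4931428L18Rik*, *2310020H05Rik* (each 0.96), *Myoz2*, *Apol6* (each 0.95) and *Ankrd2* (0.93). *Ankrd2*, *Akap1* and *Atp1b1* thus each recurred among the 5 nearest genes of more than 1 gene of the circuit.

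*Esrrg* was most like *Alpk3* (0.95), a muscle kinase-like protein, *9330159F19Rik*, *Tnfrsf19*, *Dok7*, a protein of the nerve-muscle synapse, and *Ptpn3* (each 0.94). *Ppargc1b* was most like *Miga2* (0.91), which acts in mitochondrial fusion, then *Cul5* (0.87), *Inpp4b*, *Uqcc1* (each 0.85) and *Gm49708* (0.84). *Esrra* was most like *Ganc* (0.87), *Arhgef6* (0.86), *Mdh1* (0.85), a malate dehydrogenase on the list of ERR targets, *Slc20a2* (0.85) and *Gm49708* (0.84). *Ppard* was most like *Oser1* (0.86), *St7l* (0.82), *Pag1* (0.81), *Chtop* and *Phc3* (each 0.79). *Pparg* was most like *Lrrc8c*, *Mgat4a*, *Itprid2*, *Klf6* (each 0.91) and *Serinc3* (0.90), and *Rxra* had too few UMIs to be compared.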

How the data were processed

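The deposited files hold UMI counts of each gene in each called barcode, which are whole numbers without normalization by the authors. Their processing notes name Cell Ranger 7.0.0, Seurat 5.0.3 and mm10. The kit is the 10x Multiome kit in the labels but a 10x 3′ kit in the paper's methods, and whether intronic reads were counted is not given in the sources used here. Nuclei with 200 to 5000 genes and at most 5% mitochondrial UMIs were kept, which removed 9 barcodes of the library labelled WT and 18 of that labelled KO. Scrublet (scanpy 1.11.5) then removed the highest doublet scores at 0.8% per 1000 barcodes, 115 and 134. Seurat 5.3.0 (R 4.3.3) integrated the libraries on 2000 variable genes and 30 principal components (RPCA) and clustered them at resolution 0.5 (seed 1). The clustering was repeated without the 10 genes and without genes that differed 2-fold between libraries.

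Clusters were named by at least 3 detected markers, and those above 30000 CPM of myonuclear markers were myonuclear. Python 3.11.15 (pandas 2.3.3, numpy 2.4.6; scipy 1.17.1 for the exact intervals) gave sums and ratios for genes with at least 200 UMIs in myonuclei, and for the fibre contrast at least 50 UMIs in *Myh2*-main and *Myh4*-main myonuclei of each library. TMM factors came from edgeR 4.0.16. The calculation of the ratios, not the ratios themselves, was tested on simulated data. From each list the 2 highest and 2 lowest ratios and all past 2-fold were named, and for each gene of the circuit the 5 most similar profiles among genes with at least 500 UMIs. A gene that this rule names is not reported here. The 10 genes, the lists and the alternatives were chosen with earlier results of these data known. Positions are from GENCODE M21 (GRCm38). No test was run between the 2 libraries, and of the classes under 50 nuclei only *Myh7*-main myonuclei were described.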

Additional observations from a re-analysis of the deposited data

Results flagged for a closer look

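In a few genes the log2 ratio of the library labelled KO over that labelled WT had opposite signs in groups of myonuclei, with intervals on either side of 0. The difference between the groups was not tested, since each group had 1 library per genotype. *Ppara* was at -0.12 in *Myh1*-main and 0.66 in *Myh2*-main myonuclei. *Esrra* was at 0.69 in *Myh4*-main and -0.24 in *Myh1*-main myonuclei. *Esrrg* was at -0.63 in *Myh4*-main, -0.079 in *Myh1*-main and 0.50 in *Myh2*-main myonuclei. With TMM scaling the *Myh1*-main ratio of *Esrrg* turned to 0.037, and with median-of-ratios scaling to 0.045, and that of *Ppara* came to 6.5e-05 and 0.0082, so that the negative signs of both in *Myh1*-main myonuclei depend on the scaling. The TMM-scaled interval of *Esrra* in *Myh1*-main myonuclei included 0 (-0.13, -0.30 to 0.045).

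Within *Myh1*-main myonuclei, clusters differed in the same way, and this was not tested either. *Ppargc1a* had log2 ratios of 2.30 in cluster 0, -0.65 in cluster 1 and 2.22 in cluster 5. *Perm1* had 0.61, -0.42 and 0.93 in the same clusters, and *Esrrg* had 0.36, -0.47 and -0.42. *Ppara* had 0.41 in cluster 0 and -1.04 in cluster 1. These ratios kept their signs under both scalings, but the interval of *Perm1* in cluster 1, -0.84 to -0.00066, included 0 with TMM (-0.30, -0.72 to 0.12).

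Over all myonuclei of a cluster, whatever their *Myh* gene, opposite signs were found for 5 genes, again not tested. *Ppargc1a* had 1.98 in cluster 0, -0.54 in cluster 1, 1.11 in cluster 3 and 2.12 in cluster 5. *Ppara* had 0.52 in cluster 0, -0.54 in cluster 1 and -0.52 in cluster 5. *Ppard* had -0.35 in cluster 0, whose interval included 0 with TMM, and 0.95 in cluster 3. *Esrra* had -0.34 in cluster 0, 0.91 in cluster 2 and -0.93 in cluster 5. *Esrrg* had 0.46 in cluster 0, -0.16 in cluster 1, -0.81 in cluster 2, -1.99 in cluster 3 and -0.45 in cluster 5, of which cluster 1 included 0 with TMM.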

How the results depend on the processing

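No paired analysis was possible because each genotype had 1 library. The alternatives were no doublet removal, at least 500 genes, at most 1% mitochondrial UMIs, assignment of nuclei by their own markers, thinning to 1000 UMIs, resolution 1.0, TMM and median-of-ratios scaling, means over nuclei, fibre types weighted equally, a stricter *Myh* call and a minimum of 50 UMIs. All 26 counts of genes of the circuit past 2-fold were within 1.5 times the reported ones, and no called value changed sign. Of 90 log2 ratios between libraries, 74 moved by less than their counting interval. *Ppargc1a* moved to 1.76 with thinning, 1.80 with TMM, 1.81 with median-of-ratios scaling and 1.50 with fibre types weighted equally. *Ppargc1b* moved to -0.26 with TMM and -0.25 with median-of-ratios scaling, and *Ppara* to 0.34 and 0.35, and to 0.33 with equal weights. Thinning moved *Ppard* to 0.23 and *Esrrb* to 1.53. *Esrrg* was at 0.069 with thinning, 0.24 with TMM, 0.25 with median-of-ratios scaling, 0.075 as a mean over nuclei and 0.17 with equal weights. In the lists, a minimum of 50 UMIs added 1 lower partner gene, thinning left 0 lower PPAR targets, and thinning, TMM and median-of-ratios scaling each gave 1 higher ERR target. The cause of these moves was not tested. Of 108 fibre contrasts 97 moved by less than their interval; of the other 11, the stricter *Myh* call moved *Ppargc1a* to 3.82, *Ppara* to 4.95, *Esrrb* to 4.98 and *Esrrg* to 3.73 in the library labelled KO. Carry-over of myonuclear RNA read from *Ttn*, *Neb* and *Trdn*, an alternative chosen after the data were seen, moved past counting error in 9 of 12 classes by library. Each genotype had 1 library, and *Pparg* (57 and 19) and *Rxra* (180 and 158) had few UMIs in myonuclei.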
